A study of Homo sapiens with 12 samples.

Results

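The comparison described here asks what vehicle-treated HK-2 cells gained and lost between 24 h and 72 h of culture. It rests on the 6 control arrays of a series of 12: 3 arrays of control cells at 24 h and 3 of control cells at 72 h, chosen by their labelled treatment and duration and by no measured value. HK-2 is an immortalised line derived from human renal proximal tubular epithelium, the cells that reabsorb most of what the glomerulus filters. Per the labels, all cells were plated on 6-well plates 24 h before exposure, treated when near confluent, and kept in DMEM and Ham's F12 with glucose, epidermal growth factor, hydrocortisone, insulin, transferrin and selenite. The control groups were given the vehicle alone. The other 6 arrays come from cells given a low dose of a compound that the labels call Ota, 3 at 24 h and 3 at 72 h, and serve here as the comparison group for the change over time. HK-2 is a single line, and the labels do not say whether the medium was renewed between the times. They call the arrays biological replicates without saying which cultures they came from, so the tests measure no more than the spread among these arrays.

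The endoplasmic reticulum (ER) folds secreted and membrane proteins, and when unfolded protein accumulates there the sensor proteins IRE1 (gene ERN1), PERK (EIF2AK3) and ATF6 raise the genes of chaperones, of protein disposal and of ER membrane traffic. PERK acts through phosphorylation of eIF2 alpha, as do kinases that sense missing amino acids, and all of these favour translation of the transcription factor ATF4, which raises genes of amino acid uptake, amino acid synthesis and tRNA charging. Proliferating cells raise DNA replication genes through E2F factors late in G1 and mitosis genes later through FOXM1 and the DREAM and MuvB complexes. Textbook accounts of confluent epithelium describe exit from this cycle, firmer junctions and growth of a primary cilium.

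Each value below is a log2 GCRMA value, the array intensity after background correction, normalization and summary by the authors, and each fold change compares the mean of 3 arrays at 72 h with the mean of 3 at 24 h. A gene was called where limma gave an adjusted p under 0.05. Across the 10699 genes tested, arrays of the same control group correlated at r = 0.986 to 0.994 and control arrays of different times at 0.945 to 0.955. The first principal component of the 6 control arrays held 78% of the variance and separated the times. The log2 difference between 3' and 5' actin control probe sets, a sign of RNA quality, was 1.01 ± 0.21 (SD, n = 3) at 24 h and 1.18 ± 0.17 at 72 h. All 6 general epithelial markers were above the filter of log2 4 on at least 3 arrays, but of 13 defining proximal tubule markers 2 were, so the labelled tubule identity is not shown by these levels. None of 10 endothelial or 9 leukocyte markers was above the filter, nor were 11 of 12 distal nephron markers, while 4 of 11 fibroblast and 6 of 8 podocyte markers were. The summed log2 level of the 8 podocyte markers was 52.8 to 54.2 at 24 h and 50.5 to 50.8 at 72 h. Of the 6 podocyte markers tested 2 fell and 0 rose, and the part of this sum in the results was not tested.

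Control cells changed widely between the times, with nearly as many genes rising as falling. Of the genes tested 4963, or 46.4%, changed: 2434 rose (22.7%) and 2529 fell (23.6%). Changes of at least 2-fold were fewer, with 573 rises (5.36%) and 608 falls (5.68%). The 3 arrays of one time lay wholly on one side of the 3 of the other for 5860 genes (54.8%), so a lack of overlap alone is common here. The median change over all genes tested was -8e-04. Normalization between arrays tends to set this median and the near balance of rises and falls. A change in total RNA per cell would therefore not be seen here. Counts for the gene lists below are to be read beside 22.7% rises and 23.6% falls. Genes of the unfolded protein response and of amino acid supply were among the largest rises, and TXNIP and genes of DNA replication and mitosis among the largest falls.

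Among called genes whose lower group mean was at least log2 4, the largest rise was in INHBE, a secreted activin subunit induced by ER stress. It read 6.50, 5.89 and 6.34 at 24 h and 11.74, 11.74 and 12.03 at 72 h, a change of 5.59 ± 0.26 (SE, n = 3 per group) or 48.2-fold. DDIT3, which encodes the stress transcription factor CHOP, was close behind. It read 7.40, 7.21 and 7.31 at 24 h and 12.46, 12.44 and 12.75 at 72 h, and rose 37.9-fold (limma, adjusted p = 5.83e-08). The next largest rises were ALDH1L2 (4.66), a mitochondrial folate enzyme, SLC7A11 (4.48), the cystine importer, ERO1B (4.44), an oxidase that drives disulfide formation, SDF2L1 (4.43), an ER chaperone cofactor, and ERN1 (4.02). With probe sets averaged, ALDH1L2 rose by 2.01 and ERN1 by 1.55. LURAP1L (3.87), DNAJC12 (3.69), BEX2 (3.62), CRELD2 (3.48), CADPS2 (3.47), BCAT1 (3.32) and LRRC49 (3.14) completed the first 14. DNAJC12 encodes a co-chaperone, CADPS2 a factor of vesicle release and BCAT1 a transaminase of branched-chain amino acids.

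Some genes rose from the floor of the array, where the size of a change is uncertain. ATF3, a stress-induced transcription factor, read 3.61, 3.26 and 4.74 at 24 h and 9.25, 9.34 and 9.59 at 72 h, a fitted rise of 5.52 ± 0.40 (3.17 with probe sets averaged). SCG5, a chaperone of prohormone processing, rose by a fitted 4.18, LAMP3, a lysosomal membrane protein linked to ER stress, by 3.82, NUPR1 by 3.52 and CHAC1, which degrades glutathione, by 3.00. The falls to the floor were led by GAL, the neuropeptide galanin, with a fitted change of -4.40 and SCN3A, a sodium channel, with -4.25 (-2.19 and -2.12 with probe sets averaged). EGLN3, a prolyl hydroxylase of the hypoxia pathway, was at -2.87, and at -0.96 on another probe set.

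The largest fall was in TXNIP, an arrestin-domain protein that restrains glucose uptake and thioredoxin and whose gene is switched on by glucose. TXNIP read 10.48, 10.15 and 10.44 at 24 h and 4.55, 4.21 and 4.47 at 72 h, so it fell by 5.95 ± 0.22, or 61.9-fold (limma, adjusted p = 2.67e-08). Its other 2 probe sets changed by -5.98 and -7.03. The next falls were genes of the cell cycle or chromosomes: NCAPH, a condensin subunit (-3.37), SPC25, a kinetochore protein (-3.21), MCM10, which helps start replication forks (-3.07), POLQ, a repair polymerase (-2.94), BRIP1, a repair helicase (-2.88), ASF1B, a histone chaperone (-2.82), E2F8 (-2.74), UHRF1, which guides maintenance DNA methylation (-2.72), LMNB1, a nuclear lamin (-2.62) and TK1, a thymidine kinase (-2.55). The first 14 falls also held CRYM, a thyroid hormone binding protein (-3.05), PRSS23, a secreted protease (-2.73, or -1.74 with probe sets averaged), and LRRN4 (-2.57).

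**Figure D1:**
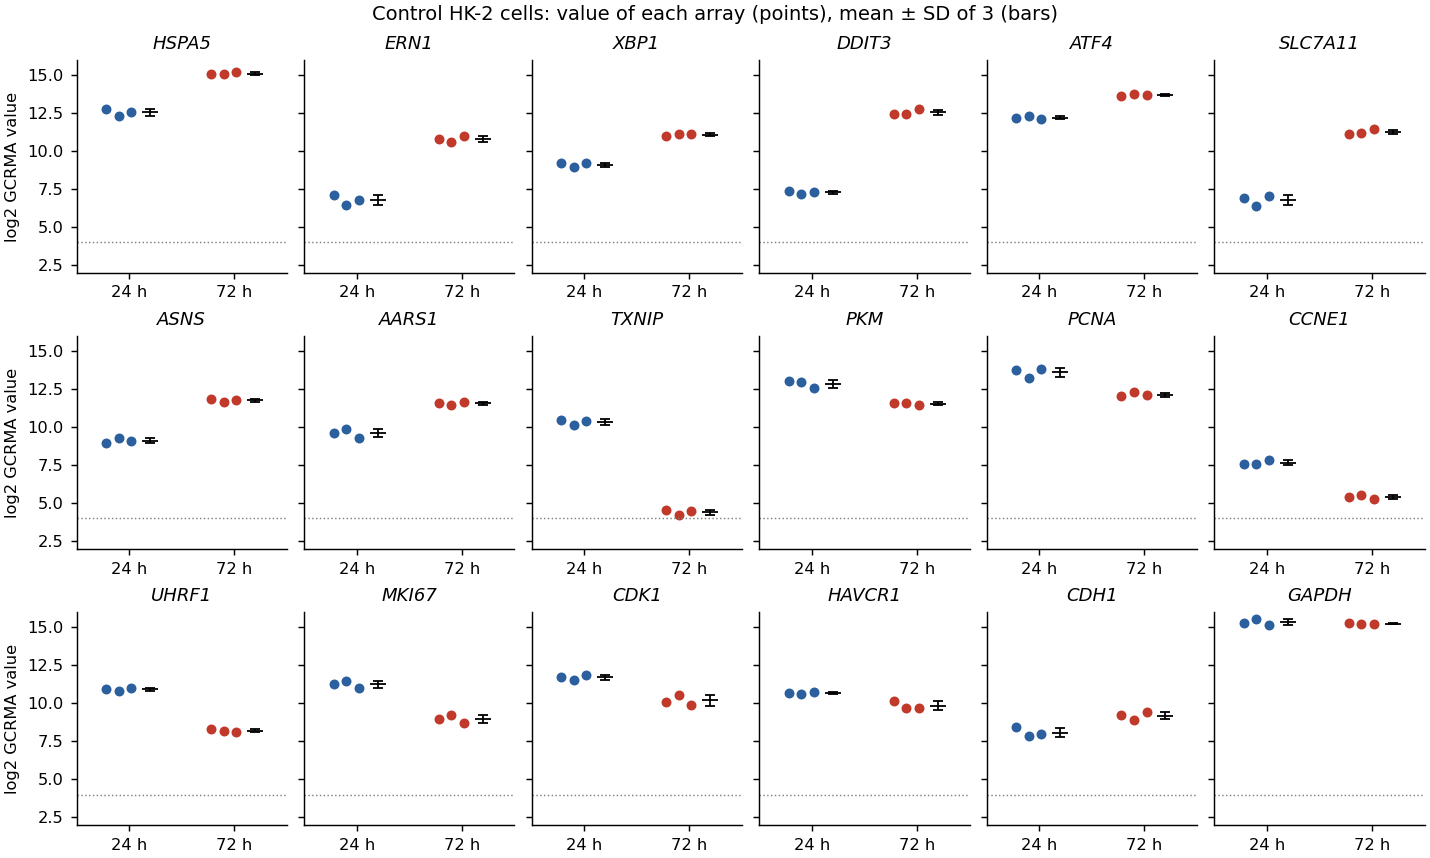
Log2 GCRMA value (vertical axis) of 18 genes in the 3 control arrays at 24 h (blue) and the 3 at 72 h (red); black bars are the mean and SD of 3 arrays, and the dotted line is the filter at log2 4. TXNIP drops from a mean of 10.4 to 4.41 and DDIT3 climbs from 7.31 to 12.6, while GAPDH stays at 15.3 and 15.2.

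The sensors and transcription factors of the unfolded protein response rose together. Of 19 tested members 16 rose and 0 fell, a share of 84.2% against 22.7% over all genes, with a median change of 1.44. ERN1, the IRE1 sensor that splices XBP1 mRNA, read 7.10, 6.47 and 6.76 at 24 h and 10.79, 10.62 and 10.98 at 72 h. XBP1 itself, the factor made from that splicing, read 9.20, 8.95 and 9.20 at 24 h and 10.99, 11.12 and 11.16 at 72 h, a 3.93-fold rise. EIF2AK3, the PERK kinase, rose 2.41-fold and ATF6 2.33-fold. None of these 4 genes had overlapping arrays, but the sizes depend on the probe set: averaged over its probe sets, ERN1 rose by 1.55 in place of 4.02, XBP1 by 0.82, EIF2AK3 by 0.64 and CREB3L2 by 0.78. A second probe set of XBP1 was at -0.33 and did not pass. ATF4 rose 2.82-fold, from 12.2 ± 0.11 to 13.7 ± 0.08 (SD, n = 3). TRIB3, a pseudokinase induced by ATF4 and CHOP, rose 3.87-fold, PPP1R15A, which directs dephosphorylation of eIF2 alpha, 2.72-fold, and CREB3L2, a membrane-bound factor related to ATF6, 3.53-fold. The members that did not pass were MBTPS1 (-0.09) and MBTPS2 (0.19), the proteases that release ATF6, and CREB3L1 (-0.63), which passed as a fall under 4 of 15 alternatives.

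ER chaperones and folding enzymes followed the same direction, with 27 of 34 tested members rising and 1 falling and a median of 1.20. HSPA5, the main ER chaperone BiP, read 12.77, 12.35 and 12.55 at 24 h and 15.07, 15.06 and 15.22 at 72 h, a 5.89-fold rise on its brightest probe set. A dimmer probe set of HSPA5 gave 5.56 on the log2 scale against 2.56, and their average 4.06, so the size for this gene depends on the probe set. CRELD2, an ER-resident disulfide isomerase, read 9.22, 9.20 and 9.20 at 24 h and 12.56, 12.43 and 13.09 at 72 h. HYOU1, a nucleotide exchange factor of BiP, rose 8.36-fold, DNAJB9, a BiP co-chaperone, 8.25-fold, DNAJC3, another, 6.61-fold, MANF, a secreted ER protein, 6.40-fold, and PDIA4, a disulfide isomerase, 6.13-fold. Rises were smaller for HSP90B1, the ER form of heat shock protein 90 (4.04-fold), PDIA6 (2.21-fold), and the lectin chaperones CANX (1.83-fold) and CALR (1.63-fold). ERO1A, the hypoxia-induced relative of ERO1B, was at 0.01 and did not pass, and neither did SERPINH1, the collagen chaperone, at -0.14. FKBP11, a proline isomerase, fell by 0.61 ± 0.20, and this call was lost under 5 of 15 alternatives. These include the fits without the first or second array at 24 h (-0.65 and -0.55) or the last at 72 h (-0.44). Other probe sets of FKBP11, at -0.19 and -0.50, did not pass.

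The promoters of these genes were read for the ER stress response element, the site bound by ATF6 and XBP1 together with NF-Y, because several of the members that rose hold it. The searched form is CCAAT, then 9 bases of any kind, then CCACG, on either strand of the 250 bases before each RefSeq start (GRCh38.p14). Among the 35116 promoters read, 26 hold it, or 0.074%. The promoter of HSPA5 is shown in full, 5′ to 3′ on the gene's strand and ending at the base before the start, with the matched letters in capitals.
HSPA5 (chr9:125241344-125241593, minus strand): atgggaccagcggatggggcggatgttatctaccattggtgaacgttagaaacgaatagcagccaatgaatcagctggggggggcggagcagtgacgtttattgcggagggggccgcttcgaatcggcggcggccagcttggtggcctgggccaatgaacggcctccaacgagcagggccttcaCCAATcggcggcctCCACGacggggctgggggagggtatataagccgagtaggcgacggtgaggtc
The site of HSPA5 lies 66 to 48 bases before the start. Around the sites of the other tested genes 18 bases are shown on each side where the window allows, again on the gene's strand; a site in the opposite orientation reads CGTGG, 9 bases and ATTGG.
HSP90B1 (chr12:103930198-103930252, plus strand): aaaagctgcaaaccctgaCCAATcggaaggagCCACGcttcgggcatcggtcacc
HSP90B1 (chr12:103930303-103930357, plus strand): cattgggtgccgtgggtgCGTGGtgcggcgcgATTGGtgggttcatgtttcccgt
CALR (chr19:12938366-12938420, plus strand): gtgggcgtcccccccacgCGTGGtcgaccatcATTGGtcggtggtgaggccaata
CANX (chr5:179698760-179698814, plus strand): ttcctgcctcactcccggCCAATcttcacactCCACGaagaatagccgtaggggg
PDIA6 (chr2:10812835-10812889, minus strand): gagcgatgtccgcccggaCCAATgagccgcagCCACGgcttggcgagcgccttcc
ERO1B (chr1:236282165-236282208, minus strand): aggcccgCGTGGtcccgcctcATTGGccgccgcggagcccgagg
CRELD2 (chr22:49918536-49918590, plus strand): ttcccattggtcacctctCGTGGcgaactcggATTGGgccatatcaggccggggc
ALG12 (chr22:49918536-49918590, minus strand): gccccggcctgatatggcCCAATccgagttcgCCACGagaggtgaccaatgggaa
SERP1 (chr3:150546692-150546746, minus strand): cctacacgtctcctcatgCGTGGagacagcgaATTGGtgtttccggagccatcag
EIF2A (chr3:150546692-150546746, plus strand): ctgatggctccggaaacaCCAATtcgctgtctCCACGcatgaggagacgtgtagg
FICD (chr12:108515105-108515159, plus strand): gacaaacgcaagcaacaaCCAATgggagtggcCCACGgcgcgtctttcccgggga
XBP1 (chr22:28800585-28800639, minus strand): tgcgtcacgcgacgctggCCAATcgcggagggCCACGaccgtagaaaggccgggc
TRIM5 (chr11:5685097-5685151, minus strand): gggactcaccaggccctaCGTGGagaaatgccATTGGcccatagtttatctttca
SYNPO (chr5:150640563-150640617, plus strand): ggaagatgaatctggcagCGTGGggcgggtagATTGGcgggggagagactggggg
TMEM120A (chr7:75994662-75994716, minus strand): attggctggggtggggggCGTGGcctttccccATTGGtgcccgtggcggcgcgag
Of the 8867 tested genes with a promoter in the table, 15 hold the element. Of these 13 rose (86.7%) and 0 fell, against 22.8% rises among the 8852 without it. The element was chosen after rises were seen, and 7 of the 15 carriers belong to the ER chaperone list above. This share is therefore not separate from the result for that list. The 13 genes have 12 distinct sites, since HSP90B1 has a pair and 2 sites are each shared by neighbouring genes that start in opposite directions, CRELD2 with ALG12, an ER mannosyltransferase, and SERP1, a translocon-associated protein, with EIF2A, an initiation factor distinct from eIF2 alpha. CRELD2 rose 11.2-fold and ALG12 1.98-fold, and SERP1 rose 3.86-fold and EIF2A 1.90-fold. FICD, an enzyme that modifies BiP, rose 6.16-fold and TRIM5, an antiviral factor, 1.55-fold, or by 0.32 on the log2 scale with probe sets averaged. The members that did not pass were SYNPO at -0.18, an actin-binding protein, and TMEM120A at -0.18. A shorter form bound by XBP1 and ATF6, TGACGTGG, is in 0.612% of promoters and in 1.01% of the tested genes. Among the 90 tested genes with it 40 rose (44.4%) and 11 fell (12.2%), against 22.7% and 23.9% of genes without it. A match is a description of letters and not of binding.

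**Figure D2:**
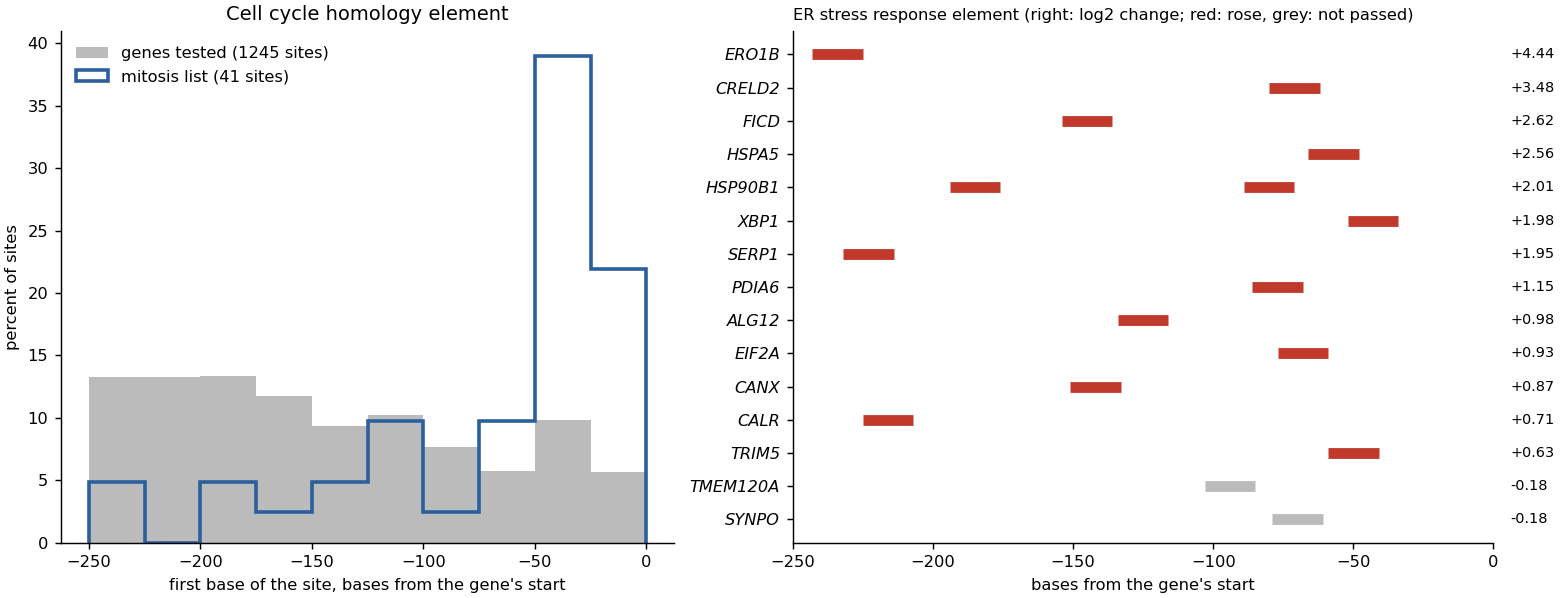
Left: share of cell cycle homology element sites (percent, vertical axis) by the distance of the site's first base from the gene's start (horizontal axis), for the 1245 sites before genes tested (grey) and the 41 sites before genes of the mitosis list (blue line). Right: position of each ER stress response element before 15 tested genes, with the log2 change of the gene from 24 h to 72 h; 13 genes rose (red) and 2 did not pass (grey).

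The parts of the ER that move, trim and discard proteins rose as well, by smaller amounts. Of 25 tested genes of ER-associated degradation 14 rose (56%) and 3 fell (12%), against 22.7% and 23.6% over all genes. Their median was 0.44. HERPUD1, a scaffold of the disposal complex, read 10.88, 10.64 and 10.69 at 24 h and 13.75, 13.65 and 13.83 at 72 h, an 8.05-fold rise, and SEL1L, the partner of the HRD1 ligase, rose 5.00-fold. HERPUD1 rose by 1.64 in place of 3.01 with probe sets averaged. The falls were in UFD1 (-0.40) and NPLOC4 (-0.40), cofactors that extract proteins from the membrane, and UBE2G2 (-0.49), a ubiquitin-conjugating enzyme. The UBE2G2 call was lost under 6 of 15 alternatives. These include the fits without the second or last array at 24 h (-0.53 and -0.37) or the first or second at 72 h (both -0.44). Of 44 genes of translocation, glycosylation and signal cleavage 26 rose (59.1%) and 3 fell (6.82%), with a median of 0.41. The rises were led by SEC11C, a catalytic subunit of the signal peptidase, at 5.06-fold. MAGT1, of the oligosaccharyltransferase, rose by 1.21 and SSR2, of the translocon, by 1.06. Of 47 genes of ER to Golgi traffic 27 rose (57.4%) and 2 fell (4.26%), with a median of 0.40. SEC24D, a coat protein of vesicles leaving the ER, rose 3.26-fold, MCFD2, a cargo receptor, 2.88-fold, and its partner LMAN1 1.99-fold. With probe sets averaged SEC24D rose by 0.74 and MCFD2 by 0.90. TRAPPC1, a subunit of a tethering complex, fell by 0.94.

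**Figure D3:**
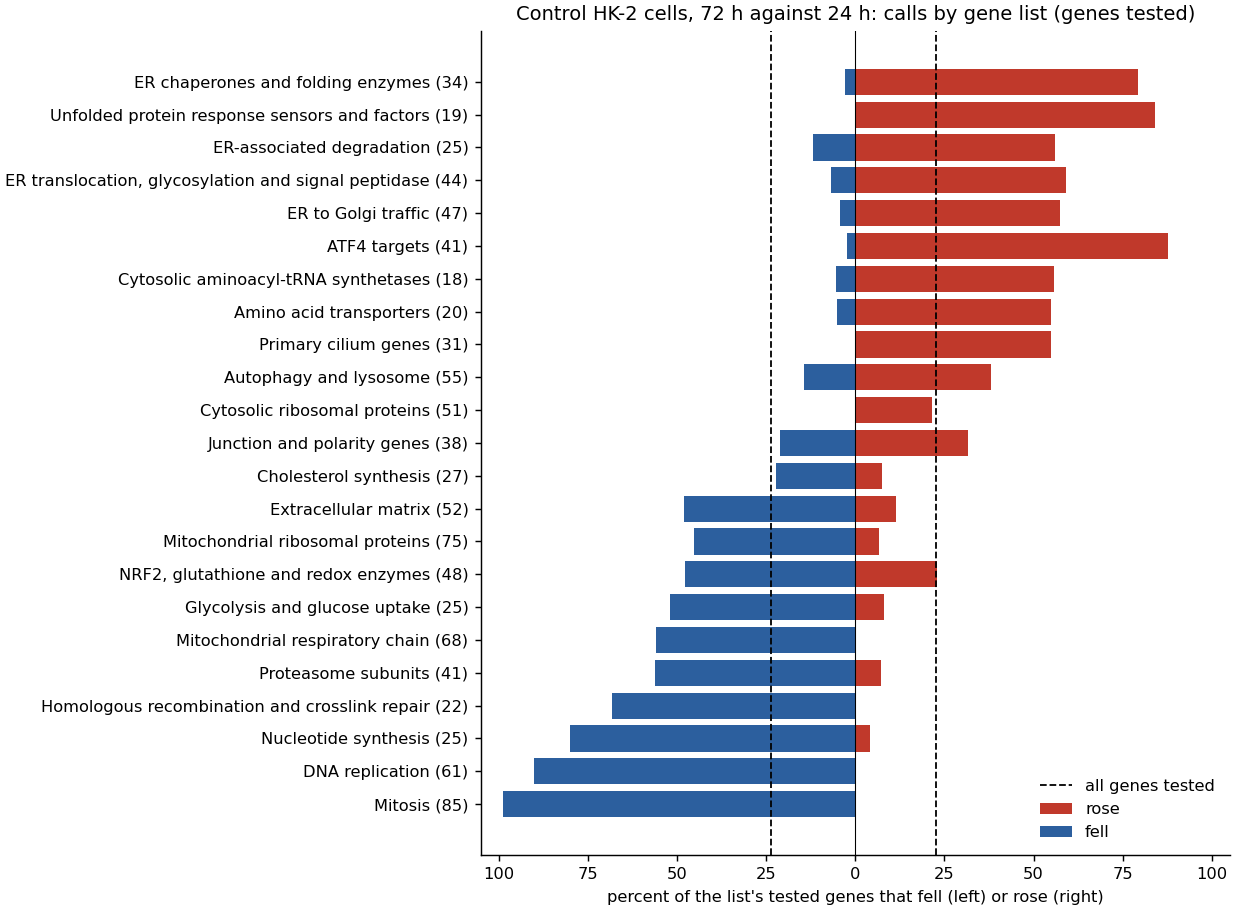
Percent of the tested genes of 23 lists that rose (red, right) or fell (blue, left) in control cells from 24 h to 72 h, with the number of genes tested in brackets; dashed lines are the shares over all genes tested, 22.7% and 23.6%. ER and ATF4 lists reach 56% to 87.8% rises, and nucleotide synthesis, DNA replication and mitosis reach 80% to 98.8% falls.

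Targets of ATF4 had the highest share of rises among the 57 functional lists examined: 36 of 41 tested members rose and 1 fell, a share of 87.8%, with a median of 1.55. The member that fell was TXNIP, and the members that did not pass were ATF5, VLDLR, CHD2 and ALDH18A1. SLC7A11 read 6.93, 6.42 and 7.02 at 24 h and 11.17, 11.21 and 11.44 at 72 h, a 22.3-fold rise. ASNS, asparagine synthetase, read 8.97, 9.30 and 9.07 at 24 h and 11.84, 11.67 and 11.82 at 72 h, a 6.35-fold rise. The arrays did not overlap for either gene. STC2, a secreted glycoprotein, rose 8.05-fold from a level near the floor, CTH, which makes cysteine, 6.42-fold, and GDF15, a secreted stress cytokine, 4.42-fold. With probe sets averaged the log2 rises were 1.34 for ASNS, 1.83 for STC2 and 0.74 for GDF15.

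Amino acid transport, synthesis and tRNA charging moved with these targets. The lists share members, SLC7A11 among them, so they are not independent of each other. Of 20 transporters tested 11 rose (55%) and 1 fell (5%), against 22.7% and 23.6% over all genes. SLC7A5, the leucine carrier, rose 7.47-fold and its partner chain SLC3A2 6.48-fold. The fall was SLC6A6, the taurine carrier, by 2.09 ± 0.11, with 11.53, 11.78 and 11.49 at 24 h and 9.40, 9.67 and 9.46 at 72 h. Of 18 cytosolic aminoacyl-tRNA synthetases 10 rose (55.6%) and 1 fell (5.56%). WARS1, for tryptophan, rose 4.95-fold and AARS1, for alanine, 3.91-fold, while HARS1, for histidine, fell by 0.59. SARS1, CARS1 and YARS1 rose by 1.69, 1.42 and 1.41. Of 15 enzymes of serine and folate metabolism 9 rose (60%) and 3 fell (20%). The mitochondrial folate enzymes SHMT2 and MTHFD2 rose 2.54-fold and 3.17-fold, and PHGDH and PSPH of serine synthesis by 1.03 and 1.07. The falls were TYMS, thymidylate synthase (-1.64), GLDC, glycine decarboxylase (-2.28), and MTHFD1, the cytosolic folate enzyme (-0.59). Averaged over probe sets, MTHFD1 was at -0.31 and YARS1 at 0.78.

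The C/EBP-ATF element, TTNCATCA on either strand, is the site bound by dimers of ATF4 or CHOP with C/EBP proteins, and it is shown for 5 genes that rose.
ATF3 (chr1:212565198-212565241, plus strand): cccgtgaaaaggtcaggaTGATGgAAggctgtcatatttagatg
CHAC1 (chr15:40953244-40953287, plus strand): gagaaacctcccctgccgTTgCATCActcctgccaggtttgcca
HERPUD1 (chr16:56931948-56931991, plus strand): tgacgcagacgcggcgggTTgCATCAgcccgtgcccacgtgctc
AARS1 (chr16:70289668-70289711, minus strand): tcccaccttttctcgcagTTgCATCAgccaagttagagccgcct
BCAT1 (chr12:24949124-24949167, minus strand): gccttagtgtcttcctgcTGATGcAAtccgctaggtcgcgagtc
Capitals mark the fixed letters, and a site in the opposite orientation shows their complement. The site is in 3.14% of promoters, in 6 of 32 ATF4 targets with a promoter in the table (18.8%) and in 2.31% of the tested genes. Among the 205 tested genes with it 60 rose (29.3%) and 41 fell (20%), close to the shares without it, 22.8% and 23.8%.

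Genes of glucose handling fell beside TXNIP. Of 10 tested genes of the glucose-responsive arrestin and ChREBP list 2 rose (20%) and 5 fell (50%), TXNIP itself among the falls. The shares over all genes were 22.7% and 23.6%. KLF10, a factor induced by glucose and by TGF-beta, fell by 1.71 ± 0.22, ARRDC4, a close relative of TXNIP, by 1.49 to a level near the floor, and ARRDC3 by 0.91. Of 25 genes of glycolysis and glucose uptake 2 rose and 13 fell, with a median of -0.55. PKM, pyruvate kinase, read 13.02, 13.01 and 12.57 at 24 h and 11.61, 11.63 and 11.46 at 72 h and fell 2.46-fold. HK1, the constitutive hexokinase, fell 2.34-fold and LDHA, lactate dehydrogenase, 1.69-fold. GPI and PGAM1 fell by 1.08 and 1.03. HK2, the inducible hexokinase, rose 1.79-fold and PFKFB2, which makes an activator of phosphofructokinase, 2.13-fold on its brightest probe set (0.20 and no call with its probe sets averaged), while SLC2A1, the main glucose carrier (-0.37), and GAPDH (-0.10) did not pass. Of 25 hypoxia-response genes 9 rose (36%) and 4 fell (16%), against 22.7% and 23.6% over all genes. VEGFA rose 3.92-fold and LOX, a matrix crosslinker, by 2.53, whereas SLC2A1 and BNIP3 (0.15) did not pass.

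DNA replication genes fell almost throughout. Of 61 tested members 55 fell and 0 rose (90.2% against 23.6% over all genes), with a median of -1.36. PCNA, the sliding clamp, read 13.76, 13.26 and 13.84 at 24 h and 12.05, 12.30 and 12.11 at 72 h, so it fell 2.77-fold. CCNE1, cyclin E1, read 7.60, 7.57 and 7.84 at 24 h and 5.45, 5.53 and 5.26 at 72 h, so it fell 4.79-fold. The 2 times did not overlap for either gene, and CCNE1 fell by 1.13 with its probe sets averaged. The helicase genes MCM2, MCM5, MCM6 and MCM7 fell by 1.05 to 1.39 and GINS4 by a fitted 3.01, and the polymerase genes POLA1 and POLA2 by 1.41 and 1.93 (POLA2 by 0.78 with probe sets averaged). The members that did not pass were RFC1, RFC5, PRIM1, ORC5, POLE3 and CDC6, at -0.22 to 0.13, though RFC5 was at -0.93 with its probe sets averaged. In these bulk samples, fewer cycling cells and less transcript per cell cannot be told apart.

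Genes that supply and repair DNA moved the same way. Of 25 genes of nucleotide synthesis 20 fell and 1 rose. TK1 fell 5.86-fold, TYMS 3.12-fold, and the ribonucleotide reductase subunits RRM2 and RRM1 2.83-fold and by 1.34, while IMPDH2, of guanine nucleotide synthesis, rose by 0.47. Of 22 genes of homologous recombination and crosslink repair 15 fell and 0 rose. BLM, a helicase, read 6.92, 7.13 and 7.01 at 24 h and 4.41, 3.50 and 3.93 at 72 h, so its fall of a fitted 3.07 ends at the floor. RAD54L fell by 2.28 and BRCA1 2.09-fold. Of 14 histone genes 8 fell and 2 rose: H2AX fell by 1.64 on its brightest probe set, while another was at -0.22 and did not pass, and H2AC6 rose by 2.96 from 24 h arrays with an SD of 0.93.

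E2F sites are shown for 6 of the genes that fell: TTTCGCGC for UHRF1 and POLA2, and TTTGGCGC for CDC25A, a phosphatase that activates CDK2, for E2F2, POLA1 and KIF15, a mitotic kinesin.
UHRF1 (chr19:4909966-4910009, plus strand): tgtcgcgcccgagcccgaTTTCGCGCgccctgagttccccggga
POLA2 (chr11:65261891-65261934, plus strand): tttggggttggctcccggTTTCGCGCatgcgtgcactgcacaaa
CDC25A (chr3:48188436-48188479, minus strand): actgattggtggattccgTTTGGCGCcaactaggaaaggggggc
E2F2 (chr1:23531250-23531293, minus strand): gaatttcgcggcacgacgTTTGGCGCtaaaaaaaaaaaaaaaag
POLA1 (chrX:24693763-24693806, plus strand): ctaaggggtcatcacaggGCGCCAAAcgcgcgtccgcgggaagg
KIF15 (chr3:44761733-44761776, plus strand): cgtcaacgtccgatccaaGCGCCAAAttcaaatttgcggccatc
Capitals mark the E2F letters on either strand. TTTGGCGC is in 0.55% of promoters and in 1.15% of the tested genes. Of 51 DNA replication genes with a promoter entry 8 hold it (15.7%). Of the 102 tested genes with TTTGGCGC 41 fell (40.2%) and 13 rose (12.7%), against 23.6% and 23% of genes without it. TTTCGCGC is in 0.439% of promoters, and of its 90 tested genes 21 fell and 21 rose, so this form did not lean to one side. Averaged over probe sets, E2F2 was at -0.68.

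Mitosis genes fell with 1 exception, SGO1, a cohesin protector that did not pass at -0.75. Of 85 tested members 84 fell and 0 rose, with a median of -1.75 and 78 falls of at least 2-fold. MKI67, the proliferation marker Ki-67, read 11.28, 11.48 and 10.99 at 24 h and 8.99, 9.22 and 8.70 at 72 h, so it fell 4.87-fold. NCAPH read 8.57, 8.43 and 8.59 at 24 h and 5.29, 5.15 and 5.05 at 72 h, so it fell 10.3-fold. FOXM1, a factor that drives this programme, fell 4.78-fold. CDK1 fell 2.86-fold, its cyclin CCNB1 3.66-fold, and the kinases AURKA and PLK1 3.93-fold and 4.21-fold. Of 24 inhibitors and G1 regulators 9 rose (37.5%) and 7 fell (29.2%), against 22.7% and 23.6% over all genes. The inhibitor CDKN1A, which encodes p21, rose 1.35-fold and BTG1, an antiproliferative gene, by 1.08, while CDK2, SKP2 and CCND1, cyclin D1, fell by 1.63, 1.51 and 1.39. CDKN2A, which encodes p16 and ARF, fell by 0.55. Probe set averages were smaller for CDK2 (-1.06), CCND1 (-0.85) and CDKN2A (-0.34).

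The cell cycle homology element, TTTGAA on either strand, is the site through which DREAM and MuvB bind promoters of mitosis genes, and it is shown for 7 members of that list, picked after their values were seen.
CDCA8 (chr1:37692475-37692515, plus strand): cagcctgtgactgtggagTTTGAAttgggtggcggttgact
PLK1 (chr16:23678842-23678883, plus strand): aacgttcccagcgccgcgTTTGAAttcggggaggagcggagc
CCNB2 (chr15:59105099-59105140, plus strand): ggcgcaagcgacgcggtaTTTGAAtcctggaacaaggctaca
CDC25C (chr5:138331811-138331852, minus strand): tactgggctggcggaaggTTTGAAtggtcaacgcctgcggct
BUB1B (chr15:40161028-40161068, plus strand): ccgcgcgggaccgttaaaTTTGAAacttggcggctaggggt
PRC1 (chr15:90994536-90994573, minus strand): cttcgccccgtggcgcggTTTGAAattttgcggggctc
ESPL1 (chr12:53268250-53268291, plus strand): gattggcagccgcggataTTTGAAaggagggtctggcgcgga
Capitals mark the 6 matched letters. The element is in 31 of 71 mitosis promoters in the table (43.7%), in 2 of 51 DNA replication promoters (3.92%) and in 11.9% of tested genes. Of the 41 sites before mitosis genes 25 begin within 50 bases of the start (61.0%), against 193 of 1245 sites before all tested genes (15.5%). Of the 1059 tested genes with the element anywhere in the window 297 fell (28.0%) and 216 rose (20.4%), against 23.2% and 23.3% of genes without it. CCNB2 was at -0.50 with its probe sets averaged.

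Mitochondrial and proteasome genes fell by small amounts that were close between replicates. Of 68 tested subunits of the respiratory chain 38 fell and 0 rose (median -0.31), of 75 mitochondrial ribosomal proteins 34 fell and 5 rose (median -0.26), and of 41 proteasome subunits 23 fell and 3 rose (median -0.29). ATP5MC1, of the ATP synthase, read 9.63, 9.35 and 9.41 at 24 h and 8.06, 7.96 and 8.05 at 72 h. SDHA, of succinate dehydrogenase, fell 1.87-fold, and PSMD1, of the proteasome lid and base complex, 1.99-fold. Cytosolic ribosomal proteins did not share this fall: 11 of 51 rose and 0 fell, a share of 21.6% that is close to the 22.7% over all genes, and RPL34 rose 1.30-fold. Of 35 cytosolic heat shock genes 15 fell (42.9%) and 5 rose (14.3%), against 23.6% and 22.7% over all genes. HSPA2 fell by 1.57 and HSPA4 by 0.72 (0.34 with probe sets averaged), and HSPA13, which is found in microsomes, rose by 1.85.

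Of 25 genes of fatty acid and lipid synthesis 11 fell and 0 rose: FASN, fatty acid synthase, read 9.83, 9.77 and 9.44 at 24 h and 8.18, 7.95 and 7.55 at 72 h and fell 3.45-fold. Of 27 cholesterol genes 6 fell and 2 rose, shares of 22.2% and 7.41% beside 23.6% and 22.7% over all genes. SREBF1, the lipogenic transcription factor, fell 2.03-fold and FDPS, of isoprenoid synthesis, by 0.80, while STARD4, a sterol carrier, rose by 0.87. Of 27 genes of fatty acid oxidation 13 fell and 5 rose. ACOT7, a thioesterase, FABP5, a fatty acid carrier, and UCP2, a mitochondrial carrier, fell by 1.55, 1.88 and 1.00, and ACADSB, a dehydrogenase of branched chains, rose by 1.03 on its brightest probe set and was at 0.03 on another. With probe sets averaged FASN was at -0.88 and SREBF1 at -0.49.

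Of 48 genes of the NRF2, glutathione and redox list 23 fell (47.9%), 11 rose (22.9%) and 14 did not pass. SLC7A11, at 4.48, had the largest rise of this list. GSTP1 and MGST1, glutathione transferases, fell by 1.02 and 0.85, and NQO1, a classic NRF2 target, by 0.66. HMOX1, heme oxygenase, was at 0.17 and did not pass, while TXNRD1, thioredoxin reductase, rose by 0.50 and NFE2L2, which encodes NRF2, by 0.78. Averaged over probe sets, TXNRD1 was at 0.24 and NFE2L2 at 0.41. All 7 metallothioneins tested fell, from MT1F at -0.69 to MT1M at -1.91. MT1M read 9.73, 9.60 and 9.92 at 24 h and 7.82, 7.88 and 7.82 at 72 h. Some probe sets of this family can match sister genes, so its members are not independent. The zinc importer SLC39A10 fell by 1.40 and another, SLC39A14, rose by 1.48. Autophagy and lysosome genes leaned up, with 21 rises (38.2%) and 8 falls (14.5%) among 55, against 22.7% and 23.6% over all genes. WIPI1, of the autophagosome membrane, rose 3.43-fold and GABARAPL1 by 1.15.

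Epithelial structure changed in both directions. Of 38 junction and polarity genes 12 rose and 8 fell, not far from the background shares. CDH1, E-cadherin, read 8.43, 7.86 and 7.97 at 24 h and 9.23, 8.94 and 9.42 at 72 h, a 2.16-fold rise, and OCLN, occludin, rose 2.05-fold. CLDN2, the claudin of the leaky proximal tubule, read 10.60, 10.57 and 10.42 at 24 h and 9.25, 9.14 and 8.64 at 72 h, so it fell 2.87-fold. Of 31 primary cilium genes 17 rose and 0 fell (median 0.40). ARL6, a cargo adaptor of the cilium, rose 2.63-fold, KIF3A, its motor, 2.29-fold, and IFT20, which carries cilium proteins from the Golgi, 2.07-fold. The rise of CDH1 was 0.70 on the log2 scale with its probe sets averaged.

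Matrix genes fell more often than they rose, 25 (48.1%) against 6 (11.5%) of 52. The shares over all genes were 23.6% and 22.7%. MMP7, a matrix protease, read 9.69, 10.03 and 9.86 at 24 h and 7.39, 7.43 and 7.56 at 72 h, so it fell 5.28-fold. TGM2, a crosslinking enzyme, fell 4.08-fold, and the secreted matrix proteins THBS1 and TGFBI and the protease inhibitor SERPINE2 fell too (-1.81, -1.84 and -1.90). The THBS1 call was lost under 3 of 15 alternatives, among them without the first array at 24 h (-1.32) or the second at 72 h (-1.39). MMP1, a collagenase, fell by a fitted 2.70 from arrays at 5.14, 7.20 and 5.07 to the floor. The call was lost under 2 of 15 alternatives, among them without the second of these arrays (-2.00). LAMB1 and LAMA1, laminin chains, rose by 0.58 and 0.51. With probe sets averaged THBS1 was at -0.78, SERPINE2 at -1.12 and LAMA1 at 0.26. The fibroblast markers DCN, LUM and COL1A1 fell by 1.74, 1.81 and 1.01 (1.01, 0.91 and 0.30 with probe sets averaged), and ACTA2, smooth muscle actin, was at 0.31 and did not pass. The other 7 of the 11 markers of that list were below the filter. The summed log2 level of those 11 markers was 54.4 to 55.0 at 24 h and 49.9 to 50.9 at 72 h. This drop comes from DCN, LUM and COL1A1, so it does not stand apart from their falls. Its part in the matrix result was not tested.

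Of 35 tubular injury markers 14 fell (40%) and 7 rose (20%), against 23.6% and 22.7% over all genes. HAVCR1, the injury marker KIM-1, read 10.67, 10.63 and 10.72 at 24 h and 10.17, 9.67 and 9.69 at 72 h, so it fell 1.78-fold. LCN2, which encodes NGAL, read 4.10, 4.10 and 5.07 at 24 h and 4.85, 5.75 and 6.64 at 72 h, so the times overlapped, and its rise was 1.32 ± 0.46. The call was lost under 6 of 14 alternatives. These include the fits without the first or second array at 24 h (both 1.16) or the second or last at 72 h (1.32 and 0.88). CD44, a matrix receptor of injured tubules, fell 2.72-fold, and the S100 proteins S100A10 and S100A11 by 0.96 and 0.91. Of 21 tested genes of proximal tubule transport and differentiation 7 rose (33.3%) and 4 fell (19%), and 34 of the 55 measured were below the filter. KL, the antiaging coreceptor klotho, rose by 1.24 and DDC, which makes renal dopamine, by 1.36, while SLC17A3, a urate carrier, fell by 1.52. The SLC17A3 call was lost under 4 of 15 alternatives. These include the fits without the first or last array at 24 h (-1.46 and -1.38) or the second at 72 h (-1.05). Averaged over probe sets, CD44 was at -0.90 and DDC at 0.88.

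The change over time in control cells was set against the change over time in Ota cells, which shares no array with it, and the difference was tested gene by gene. Rises of ER chaperones and falls of DNA replication and mitosis genes were larger in control cells. A difference in change does not say at which time the groups differed. Levels in Ota cells at 24 h are not given here, so a small change there may follow an earlier shift. The difference passed for 2278 genes: 619 changed more upward in control cells (5.79%) and 1659 more downward (15.5%). The split depends on how arrays are scaled, since 27.2% of these calls were higher in control cells, 37.6% after repeated quantile normalization and 50.4% once the median of the tested genes was made equal on every array, a scaling chosen after seeing the data. For ER chaperones 20 of 34 rose more in control cells and 0 less, and the median change was 1.20 against 0.29. For DNA replication 54 of 61 changed lower in control cells and 0 higher, and the median change was -1.36 against 3e-04. For mitosis genes 61 of 85 changed lower, and the median change was -1.75 against -0.90. These list counts were 19 to 22, 49 to 55 and 50 to 67 under the 3 other scalings, all in the same direction.

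Several of the genes that moved most did not pass the test of the difference. Of 41 ATF4 targets 8 rose more in control cells and 0 less, where 5.79% of all genes tested were higher and 15.5% lower. The median change of this list was 1.55 in control and 1.15 in Ota cells. DDIT3 rose by 5.24 in control and 5.03 in Ota cells, ATF3 by 5.52 and 5.23, and TXNIP changed by -5.95 and -6.11, and the difference did not pass for any of these 3. The chaperone HSPA5 changed by 2.56 and 2.23 and the factor XBP1 by 1.98 and 1.89, also without a called difference, whereas the folding enzyme CRELD2 was at 3.48 and 1.41, the chaperone HSP90B1 at 2.01 and 0.46, and the signal peptidase subunit SEC11C at 2.34 and 0.57, each with one. CCNE1 fell by 2.26 in control cells and was at 0.04 in Ota cells. POLA2 fell by 1.93 in control cells and rose by 1.21 in Ota cells, and HAVCR1 was at -0.83 in control and 0.74 in Ota cells. KRT20, a keratin of differentiated epithelium, was at -0.12 in control cells and 3.27 in Ota cells, the largest difference in this direction among genes above the floor.

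**Figure D4:**
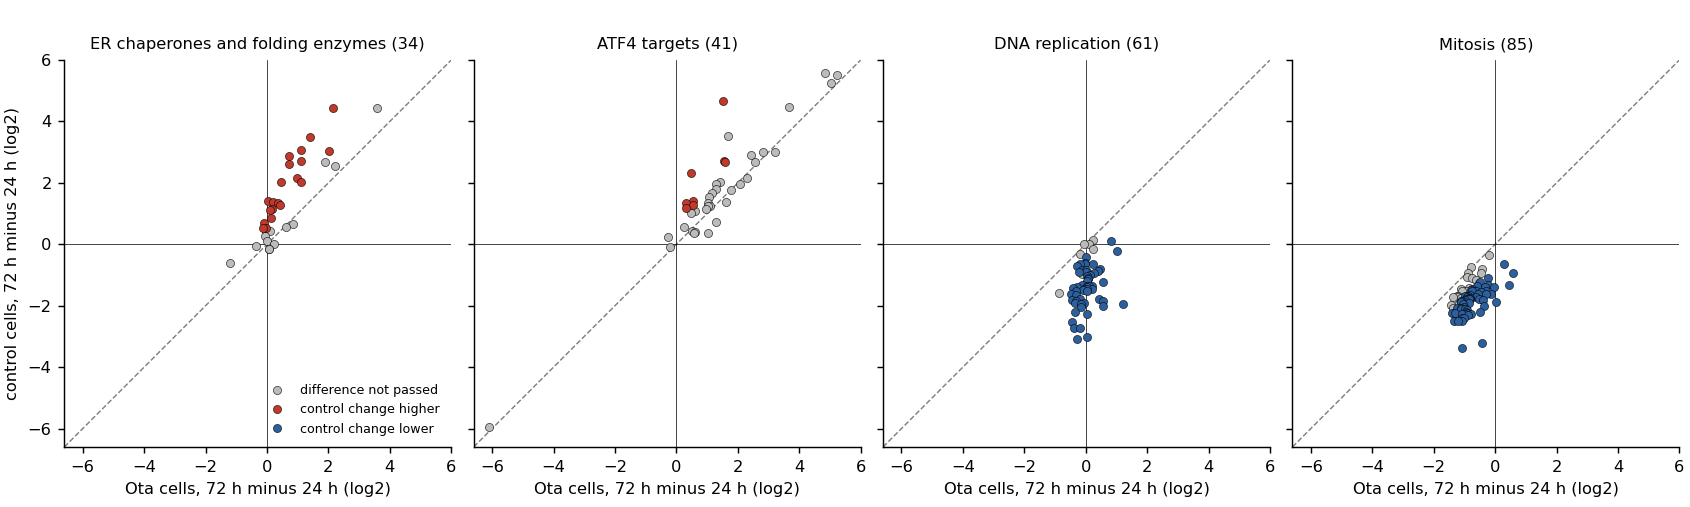
Change from 24 h to 72 h on the log2 scale in control cells (vertical axis) and in Ota cells (horizontal axis) for the tested genes of 4 lists; the dashed line marks equal change, and red or blue points passed the test of the difference. DNA replication genes sit near 0 in Ota cells (median 3e-04) and below 0 in control cells (median -1.36). ATF4 targets lie closer to the line, with 8 of 41 past the test. All 8 were higher in control cells, as were 5.79% of all genes tested.

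Limits on these values are those of 3 arrays a group and of array floors: 1 probe set stands for each gene, fold changes that start or end below log2 4 are uncertain in size, and probe sets of CALR, HSP90B1, FOXM1, SKP2, CDKN2A, GDF15, DCN, SDHA, HSPA4, MGST1, MT1F, LRRN4 and GAPDH are of a kind that can match other transcripts. Time in culture, cell density, medium age and time after the vehicle differ together between the groups and cannot be told apart.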

How the data were processed

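The deposited table holds log2 values per probe set, made by the authors with GCRMA from HG-U133 Plus 2 arrays, per the submitters' processing notes; version, settings and scanner files are not given in the sources used here. It lists 54675 probe sets. Of these 41091 have 1 gene symbol in the platform annotation, 1801 have several, 11721 have none and 62 are controls; symbols were updated through gene IDs. The brightest probe set stood for each of 19775 genes, and 10699 above log2 4 on at least 3 of 12 arrays were tested. limma 3.58.1 (R 4.3.3) fitted 1 mean per group over all 12 arrays with lmFit and eBayes (8 residual and 3.31 prior degrees of freedom), and the Benjamini-Hochberg adjustment ran over all genes tested. The difference between control and Ota cells was the interaction in that fit. The script was tested on simulated data. Depth does not apply to arrays, and precision is limited by 3 arrays a group.

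Genes, lists and tests were chosen with earlier results of these data known. Genes named are, by rule, the 14 largest rises and falls above log2 4 with separate groups, the 5 largest of each near the floor, up to 4 rises and 4 falls per list by smallest p, 11 fixed genes, promoter element carriers and the 6 largest differences from Ota cells each way. Others, among them members that did not pass and most genes shown for E2F and cell cycle homology elements, were named after their values were seen. RefSeq promoters (GRCh38.p14) matched 8867 tested genes by gene ID. Alternatives were other filters, probe set means, scalings, control arrays alone, a replicate block, an intensity trend and leaving out each array. Whether replicate numbers pair the arrays of the 2 times is not settled. Deviations of same-numbered control arrays correlated at 0.25, 0.08 and 0.18, and those of different-numbered arrays at -0.27 to 0.09. The main fit used no pairing.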

Additional observations from a re-analysis of the deposited data

Results flagged for a closer look

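The change from 24 h to 72 h in control cells minus that in Ota cells was called by limma for 135 of the 238 genes named in the text, with adjusted p from 1.06e-05 to 0.0462: 52 were higher in control cells and 83 lower. The values in brackets are this difference on the log2 scale, and no cause was tested. Changes of ER chaperones and folding enzymes were higher in control cells for ERO1B (2.29), CRELD2 (2.07), HYOU1 (1.96), PDIA4 (1.91), DNAJC3 (1.62), HSP90B1 (1.56), DNAJB9 (1.02), PDIA6 (0.99), CALR (0.80) and CANX (0.75). Among the sensors and factors of the unfolded protein response the difference was called for ERN1 (1.24), ATF6 (1.16) and CREB3L2 (1.10). Genes of ER disposal, translocation and traffic were SEC11C (1.77), SEL1L (1.51), MCFD2 (1.07), LMAN1 (1.04), SERP1 (1.03), MAGT1 (0.98), SEC24D (0.94) and SSR2 (0.80), with TRAPPC1 (-0.73) in the other direction. Amino acid, folate and tRNA charging genes were higher for ALDH1L2 (3.15), BCAT1 (2.43), WARS1 (1.81), SLC3A2 (1.14), ASNS (1.09), SHMT2 (1.02), CARS1 (0.82), SARS1 (0.72) and YARS1 (0.61) and lower for GLDC (-1.33), TYMS (-1.22), HARS1 (-0.90), MTHFD1 (-0.66) and SLC6A6 (-0.55).

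Differences among DNA replication, nucleotide and repair genes were all lower in control cells: POLA2 (-3.14), GINS4 (-3.05), MCM10 (-2.79), BLM (-2.73), RAD54L (-2.43), UHRF1 (-2.35), CCNE1 (-2.30), TK1 (-2.26), BRIP1 (-2.18) and POLQ (-2.16), and further CDC25A (-1.64), PCNA (-1.52), H2AX (-1.44), MCM6 (-1.42), MCM5 (-1.38), CDC6 (-1.23), RRM1 (-1.19), RRM2 (-1.16), MCM7 (-1.10), MCM2 (-1.08), BRCA1 (-1.02), POLA1 (-1.01) and PRIM1 (-0.70). CDC6 and PRIM1 did not change by the test in control cells alone. Factors and chromatin proteins of the cycle were ASF1B (-2.55), E2F8 (-2.54), CDK2 (-1.95), E2F2 (-1.78), LMNB1 (-1.51), FOXM1 (-1.28) and SKP2 (-0.75), while the histone gene H2AC6 (2.40) went the other way. Mitosis and centromere genes were SPC25 (-2.78), NCAPH (-2.29), CENPW (-1.83), CENPI (-1.72), MKI67 (-1.48), ESPL1 (-1.42), CDCA8 (-1.30), KIF15 (-1.27), CDK1 (-0.91), BUB1B (-0.86), PRC1 (-0.85), CCNB1 (-0.75) and CCNB2 (-0.72).

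Metabolic genes were lower for FASN (-2.00), UCP2 (-1.73), ACOT7 (-1.37), FDPS (-1.25), KLF10 (-1.26), SREBF1 (-0.98), FABP5 (-0.84), SDHA (-0.81), HK1 (-0.75), PGAM1 (-0.69), ATP5MC1 (-0.64), GPI (-0.59), PKM (-0.58) and LDHA (-0.38) and higher for ACADSB (1.17). Genes of proteolysis, heat shock, redox and metal handling were HSPA2 (-1.66), MT1M (-0.73), SLC39A10 (-0.63), PSMD1 (-0.61) and MGST1 (-0.59) and, in the other direction, HSPA13 (1.04), SLC39A14 (0.86) and GABARAPL1 (0.70). Surface, matrix and tubule genes were KRT20 (-3.39), SLC17A3 (-2.43), CLDN2 (-1.80), HAVCR1 (-1.58), LUM (-1.40), MMP7 (-1.33), TGM2 (-1.01), ITGA3 (-0.78) and S100A10 (-0.49), with LOX (1.68), IFT20 (0.78) and ACTA2 (1.32) higher. KRT20 and ACTA2 did not pass in control cells alone. The remaining genes were LAMP3 (3.12), SCG5 (2.38), CADPS2 (2.11), DNAJC12 (1.97), LURAP1L (1.78), BTC (1.58), SNHG18 (1.30), BEX2 (1.02), PER2 (1.00), SNHG33 (0.93), EPB41L4A-AS1 (0.83), SNHG32 (0.82), EIF2A (0.56) and NR1D2 (0.42) on the higher side and SCN3A (-2.64), LRRN4 (-2.34), CRYM (-1.41), OAS3 (-1.34), PRSS23 (-1.19) and PER3 (-0.85) on the lower.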

How the results depend on the processing

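The number of genes that changed in control cells (4963) stayed between 4289 and 5419 under every alternative run, and the direction of the calls shared with each alternative was opposite for 2 genes, both when probe sets of a gene were averaged. Leaving out 1 control array gave 4289 to 4853 calls. With averaged probe sets 375 genes rose and 436 fell at least 2-fold, against 573 and 608. The number of differences from Ota cells (2278) was 1555 to 2401 when any 1 array was left out. Its split between directions moved with the scaling of arrays: 500 higher and 1924 lower in control cells with a common median over all probe sets, and 1184 and 1164 with a common median over the genes tested, a scaling chosen after seeing the data that moved the median difference from -0.09 to 0.05. With the replicate number as a block, a pairing that the labels do not state, 5419 genes changed and 2831 differed from Ota cells. Of 214 genes named in the text and called, 7 lost the call under some alternative, and RFC5, at 0.13 and not called, was at -0.93 and called with averaged probe sets. Averaging probe sets moved the log2 change by over 1.5 times for 50 of 213 named and called genes, smaller in 49 and in the same direction in all 50, and 2 of them (UBE2G2 at -0.24 and PFKFB2 at 0.20) lost the call. Of those not given above, BTC was then at 1.19, EREG at 1.14, CENPI at -1.18, H2AX at -0.57, OAS3 at -1.11, PER2 at 0.69, PER3 at -0.37 and ACADSB at 0.53. Named genes that were not called gained a call in 8 cases: ATF5 under 6 of 15 alternatives, CREB3L1 under 4, and SGO1, SLC2A1, VLDLR, CHD2, ERO1A and ACTA2 under 1 each. The medians of the clock, interferon and G1 regulator lists changed sign under at least 1 alternative.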

Other observations

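Small nucleolar RNA host genes, non-coding transcripts whose introns release RNAs that guide ribosomal RNA modification, rose in control cells: all 5 tested rose, from SNHG19 at 0.41 to SNHG32 at 1.93, with SNHG17 at 1.76, SNHG18 at 1.25 and SNHG33 at 1.12. Of 59 tested long intergenic non-coding RNA genes 20 rose and 3 fell, and of 112 antisense RNA genes 35 rose and 8 fell, against 22.7% rises and 23.6% falls over all genes tested. EPB41L4A-AS1 rose by 1.96 and OIP5-AS1 by 0.68. The strand of an antisense probe set is set by the array's design and was not examined. Of 344 zinc finger ZNF genes 96 rose and 34 fell.

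Genes of the S100 calcium-binding family fell or did not pass, with 8 falls and 0 rises among 11, led by S100A2 (-2.29) and S100A3 (-2.17). Of 17 integrins 6 fell (35.3%, against 23.6% over all genes) and 0 rose, with ITGA5 at -1.19 and ITGA3 at -1.08. Of 19 centromere CENP proteins 16 fell and 0 rose, with CENPI at -2.22 and CENPW at -2.02, a median of -1.31 against -0.20 for Ota. Of 14 genes of the EGF receptor family and its ligands 5 rose (35.7%) and 3 fell (21.4%), against 22.7% and 23.6% over all genes. BTC, betacellulin, rose by 2.29 and EREG, epiregulin, by 2.26. Per the labels the culture medium was made with epidermal growth factor, and its level at either time is not given. Of 17 circadian clock genes 5 rose and 5 fell (29.4% each, against 22.7% and 23.6% over all genes). PER2 rose by 1.39 and NR1D2 by 1.06, and PER3 fell by 1.00. Of 35 interferon-stimulated genes 24 did not pass, 5 rose (14.3%) and 6 fell (17.1%), shares below those over all genes. ISG20 and IRF1 rose by 2.47 and 1.60, and OAS3 and IFIT1 fell by 1.91 and 1.40.

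Of the 4963 genes that changed in control cells and the 3447 that changed in Ota cells, 1960 were called in both in the same direction, which is 39.5% of the first and 56.9% of the second. Another 154 were called in opposite directions.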
